A study of Mus musculus with 35 samples.

Results

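The 9 genes described here mark the 3 main classes of lymphocyte: T cells (Cd3e, Cd3d, Cd3g, Cd8a and Trac), B cells (Cd79a, Cd79b and Ms4a1) and natural killer (NK) or cytotoxic cells (Nkg7). They were taken by symbol, through their Ensembl identifiers, from the 55401 genes counted by RNA sequencing in CD45+ cells of mouse brain. All 9 passed the filter on low counts, as each would have with the mice of any 1 age left out, and were among the 17612 genes tested.

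T cells recognise antigen through a receptor whose signalling chains are encoded by the Cd3 genes. B cells signal through a surface antibody paired with the products of Cd79a and Cd79b. NK cells and cytotoxic T cells kill target cells with granules, to which the Nkg7 protein is linked. Few lymphocytes are found in the healthy brain itself, where microglia are the main CD45+ cell, and lymphocytes are known in the meninges, choroid plexus and blood.

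The study sequenced 35 wild-type C57BL/6 mice, with 1 library per mouse, to follow microglia through postnatal development in both sexes. Whole brains were freed of meninges and visible clots, digested with papain and panned on an antibody to CD45, a surface protein of all nucleated blood-lineage cells including lymphocytes. The groups were postnatal day 6 (P6, 4 females and 6 males), day 15 (P15, 6 females and 6 males) and 8 weeks (6 females and 6 males). No mouse carried a transgene or received a treatment, and a further P6 female that the study set aside as an outlier, P6 female 6, was left out here too.

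The 34 libraries held between 23316107 and 38965078 counts assigned to genes. The microglial marker Tmem119 had a median over mice of 291 counts per 1000000 (CPM) at P6, then 2354 and 2429 at the later ages, and Cx3cr1 had medians of 2366, 4850 and 6423 CPM. The 9 lymphocyte markers summed to 28.2, 45.1 and 42.8 CPM, so they were a small part of the RNA in libraries that carried the markers of their label. Cd79b was the largest part of that sum at each age, so the sum does not show how the other markers moved. Markers of other cells were present as well, and the 6 erythroid genes summed to medians of 2125, 5250 and 2049 CPM and the 6 neuronal genes to 692, 315 and 110 CPM. P15 male 1 and 8 weeks male 4 stood apart: long transcripts (exon length over 6000 bases) lay below short ones (under 1500 bases) by a median log2 difference of -0.77 and -0.73 relative to their age, the lowest value at each age. P15 female 2 stood apart in the other direction, at 0.65, where the next P15 mouse was at 0.28. Without 8 weeks male 4, the 6 markers that rose from P15 to 8 weeks did so by between 1.06 (Cd3d) and 2.35 (Nkg7) on the log2 scale and still passed the test.

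Most of these markers were more abundant in older mice. Genes of all 3 classes rose from P6 to P15, and the 5 T cell genes and Nkg7 rose from P15 to 8 weeks. Between P6 and P15, 7 of the 9 genes rose and none fell at a false discovery rate (FDR) below 0.05 in edgeR's quasi-likelihood test, where 30.4% of all tested genes rose and 31.4% fell. Between P15 and 8 weeks, 6 genes rose and 1 fell, against 24.0% and 23.9% of all genes. Over the whole interval from P6 to 8 weeks, 8 genes rose and Cd79b fell, against 37.8% and 36.6% of all genes. Calls in either direction took in 7, 7 and 9 markers in the 3 comparisons, beside 61.8%, 47.9% and 74.4% of all genes. The 3 comparisons share mice, so their calls are not independent of each other. The median log2 fold change of the 9 genes was 1.19, 1.34 and 2.21 in the 3 comparisons in turn, beside -0.01, 0.02 and 0.04 for all tested genes. In such bulk libraries, fewer cells of a type and less RNA per cell cannot be told apart.

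**Figure D1:**
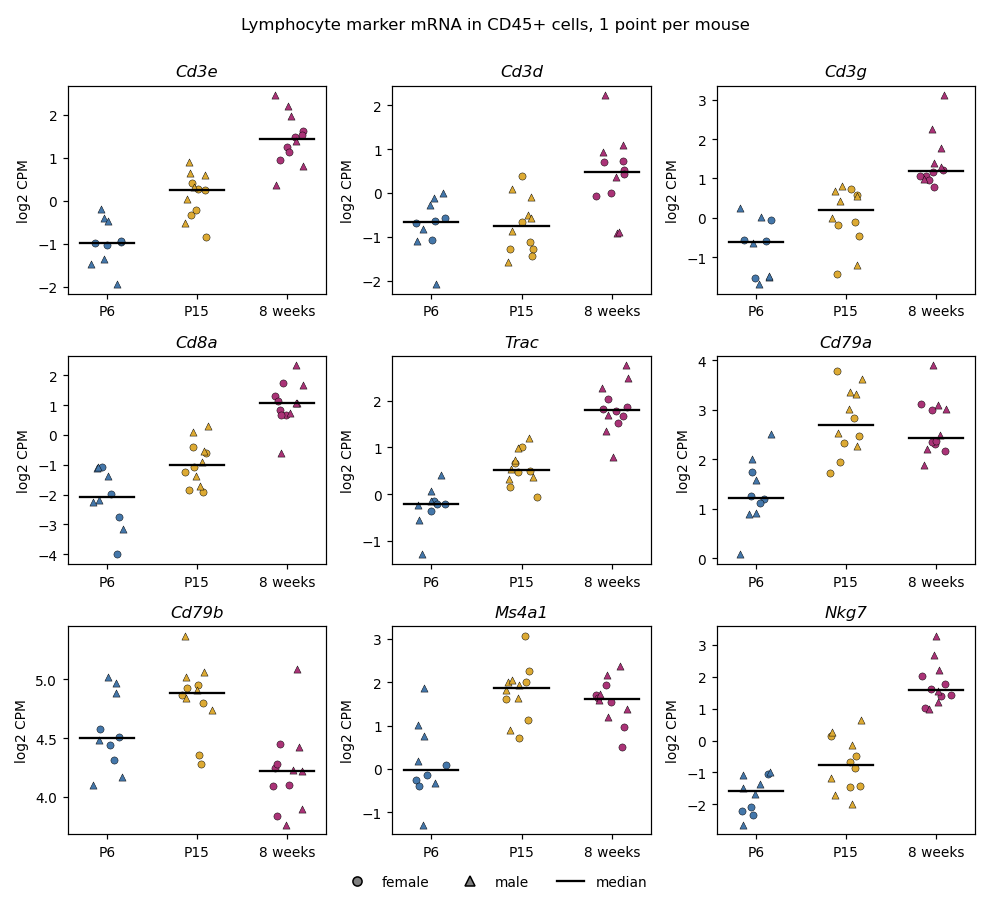
Level of each of the 9 lymphocyte markers in log2 CPM (vertical axis, with its own range in each panel) at P6, P15 and 8 weeks, with 1 point per mouse, circles for females, triangles for males and a line at the median of each age. The T cell genes other than Cd3d and the cytotoxic gene Nkg7 step upwards at each age, Cd79a and Ms4a1 are higher at P15 than at P6, and Cd79b is lowest at 8 weeks.

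Cd3e encodes the epsilon chain of the CD3 complex, which every mature T cell needs to signal. It was at 0.199, 0.448 and 0.820 CPM (lowest, median and highest of 10 mice) at P6, at 0.495, 1.14 and 1.82 CPM in the 12 mice at P15, and at 1.23, 2.65 and 5.44 CPM in the 12 mice at 8 weeks. Every 8-week mouse lay above every P6 mouse, while 10 of 12 lay above every P15 mouse. Its log2 fold change was 1.19 (SE 0.261, FDR 2.24e-04) from P6 to P15 and 1.38 (SE 0.230, FDR 1.37e-05) from P15 to 8 weeks. These levels rested on 8 to 28 counts per mouse at P6 and 39 to 145 at 8 weeks.

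Cd3g and Cd3d encode the gamma and delta chains of the same complex. The 3 Cd3 genes lie together within 40056 bases of chromosome 9 (GRCm38), and Cd3g, on the minus strand, and Cd3d, on the plus strand, start 1355 bases apart and run away from each other. Cd3g was at 0.248, 0.594 and 1.12 CPM at P6, at 0.308, 1.10 and 1.68 at P15 and at 1.66, 2.20 and 8.63 at 8 weeks. It rose at both steps, with log2 fold changes of 0.85 (SE 0.316, FDR 0.0199) and 1.39 (SE 0.285, FDR 2.01e-04), the latter 1.20 without 8 weeks male 4. The first of these calls rested on 1 mouse, since without P6 female 5 it was 0.71 (FDR 0.0610).

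Cd3d did not pass the test in the first interval. It was at 0.174, 0.566 and 0.935 CPM at P6, at 0.273, 0.528 and 1.25 at P15, and at 0.472, 1.33 and 4.65 at 8 weeks. The P6 and P15 mice overlapped, with 2 of 12 P15 mice above every P6 mouse, and the log2 fold change was 0.06 (SE 0.341, FDR 0.886), or -0.048 with library size scaling. It was -0.17 without P15 female 3 and also below 0 without P15 male 5, P6 female 5 or P6 male 3. From P15 to 8 weeks Cd3d rose by 1.34 on the log2 scale (SE 0.316, FDR 9.39e-04), or by 1.06 without 8 weeks male 4. Whether the change of Cd3d differed from that of Cd3e or Cd3g was not tested.

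The stretches before the starts of the 3 Cd3 genes are shown because Cd3g and Cd3d lie side by side but only Cd3g was called at P15. They were read 5′ to 3′ on each gene's strand from the RefSeq promoter table for GRCm38.p6, which held 6 of the 9 genes, and were shortened where the GENCODE gene model starts earlier. Capitals mark matches on either strand to 4 letter patterns, the ETS core GGAAGT, the RUNX core TGTGGT, the E-box CAGNTG and the EBF1 core site CAAGGGA.
Cd3g, chr9:44980432-44980681, minus strand: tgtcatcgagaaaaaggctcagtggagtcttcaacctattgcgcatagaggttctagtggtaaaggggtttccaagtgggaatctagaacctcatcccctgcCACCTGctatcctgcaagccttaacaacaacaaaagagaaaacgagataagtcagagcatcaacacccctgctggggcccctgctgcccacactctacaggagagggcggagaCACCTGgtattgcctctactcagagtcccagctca
Cd3d, chr9:44981536-44981785, plus strand: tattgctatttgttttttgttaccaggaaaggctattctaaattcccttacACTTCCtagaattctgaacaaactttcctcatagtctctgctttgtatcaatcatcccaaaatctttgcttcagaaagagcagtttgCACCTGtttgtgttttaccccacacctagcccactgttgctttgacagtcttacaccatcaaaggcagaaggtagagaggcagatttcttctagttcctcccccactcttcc
Cd3e, chr9:45009628-45009861, minus strand: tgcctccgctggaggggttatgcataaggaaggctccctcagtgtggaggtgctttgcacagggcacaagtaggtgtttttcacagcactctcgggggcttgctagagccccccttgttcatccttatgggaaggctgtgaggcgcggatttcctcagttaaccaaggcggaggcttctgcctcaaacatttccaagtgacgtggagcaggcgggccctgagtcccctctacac
The Cd3g stretch held 2 E-boxes, and the Cd3d stretch held 1 E-box and 1 ETS core. The Cd3e stretch as printed held none of the patterns, but its full window of 250 bases held 1 ETS core that runs across the end of the printed stretch. The full window of Cd79a held 1 in the part not shown. Among 32851 full windows of 250 bases, 44.8% held the E-box, 19.7% the ETS core, 14.0% the RUNX core and 4.21% the EBF1 core site, so most of these matches are common. A palindromic E-box reads the same on both strands and was counted once.

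Trac encodes the constant part of the T cell receptor alpha chain, which is made once the alpha locus has rearranged. It was the best counted of the 5 T cell genes at 8 weeks, at 1.67, 3.42 and 6.68 CPM, after 0.347, 0.805 and 1.27 at P6 and 0.903, 1.37 and 2.24 at P15. The log2 fold change was 0.87 (SE 0.212, FDR 6.94e-04) in the first interval and 1.34 (SE 0.192, FDR 1.50e-06) in the second, and all 12 of the 8-week mice exceeded every P6 mouse.

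Cd8a encodes the alpha chain of CD8, the coreceptor of cytotoxic T cells, which some dendritic cells also carry. At P6 it was at 0, 0.176 and 0.415 CPM, with 3 of 10 mice at 3 counts or fewer, and at P15 at 0.204, 0.441 and 1.18 CPM. At 8 weeks it was at 0.598, 2.05 and 4.99 CPM, above every P6 mouse in 12 of 12 animals and above every P15 mouse in 11. The log2 fold change from P15 to 8 weeks was 2.12 (SE 0.353, FDR 1.40e-05), and that from P6 to P15 was 1.27 (SE 0.416, FDR 0.00901). Cd8b1, the partner chain, moved from a median of 0.532 CPM at P15 to 1.35 at 8 weeks and also rose (log2 fold change 1.82, SE 0.321).

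Nkg7 encodes a granule protein of NK cells and cytotoxic T cells, and its rise from P6 to 8 weeks was the largest of the 9 (log2 fold change 3.81, SE 0.375). It was at 0.0993, 0.275 and 0.439 CPM at P6, at 0.193, 0.528 and 1.50 at P15, and at 1.92, 2.92 and 9.68 at 8 weeks. It was the single marker of the 9 whose 8-week mice all lay above all P15 mice, a pattern found in 1.65% of tested genes. Its log2 fold change was 1.29 (SE 0.364, FDR 0.00288) from P6 to P15 and 2.52 (SE 0.312, FDR 1.15e-07) from P15 to 8 weeks. The second value was 2.35 without 8 weeks male 4, whose level of 9.68 CPM was followed by 6.34 CPM in male 5.

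Cd79a encodes one chain of the signalling pair of the B cell receptor, and Ms4a1 encodes CD20, a surface protein of B cells. Cd79a was at 0.993, 2.28 and 5.63 CPM at P6, at 3.23, 6.43 and 13.8 at P15 and at 3.62, 5.34 and 14.9 at 8 weeks. Ms4a1 was at 0.347, 0.929 and 3.61 CPM at P6, at 1.56, 3.61 and 8.37 at P15 and at 1.35, 2.98 and 5.13 at 8 weeks. In both genes all 12 P15 mice exceeded the P6 median, and the P15 and 8-week mice overlapped.

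Cd79a rose by 1.47 on the log2 scale (SE 0.284, FDR 4.75e-05) from P6 to P15, and Ms4a1 by 1.68 (SE 0.304, FDR 1.92e-05). From P15 to 8 weeks neither gene passed the test, with values of -0.14 (SE 0.255, FDR 0.679) for Cd79a and -0.27 (SE 0.268, FDR 0.425) for Ms4a1. The Cd79a value was 0.056 without P15 female 3. Over the same interval, the 5 T cell genes and Nkg7 all rose.

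The stretches before Cd79a and Nkg7 are shown as examples from the B cell and cytotoxic classes. They were read in the same way and carry the same marking.
Cd79a, chr7:24897247-24897380, plus strand: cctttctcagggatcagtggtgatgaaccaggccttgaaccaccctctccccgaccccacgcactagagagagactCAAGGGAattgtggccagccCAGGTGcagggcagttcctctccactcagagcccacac
Nkg7, chr7:43436888-43437072, plus strand: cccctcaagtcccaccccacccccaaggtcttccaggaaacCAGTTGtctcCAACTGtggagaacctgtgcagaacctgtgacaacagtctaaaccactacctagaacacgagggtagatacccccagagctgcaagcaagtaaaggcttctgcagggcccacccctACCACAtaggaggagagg
Cd79a was the single one of the 6 genes in the table with the EBF1 core site, and Nkg7 the single one with the RUNX core. These matches describe letters and do not show that a factor binds there.

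**Figure D2:**
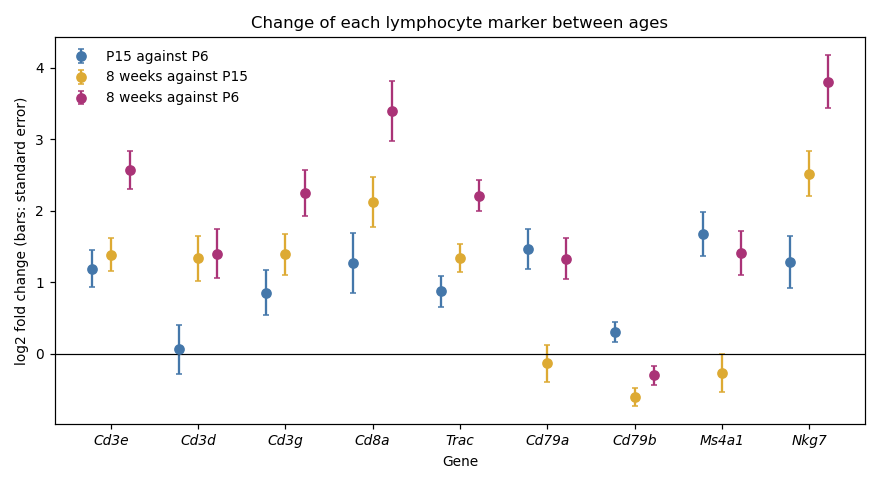
Log2 fold change of each of the 9 markers between ages (points, with standard error as bars) from the edgeR fit of 34 mice, with 0 marked by a line. Cd79a and Ms4a1 changed in the first interval, the T cell genes and Nkg7 in both apart from Cd3d in the first, and Cd79b lies near or below 0.

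Cd79b, the partner of Cd79a in the B cell receptor, was the most abundant of the 9 genes and the one that fell. It was at 17.1, 22.5 and 32.4 CPM at P6, at 19.4, 29.5 and 41.3 at P15, and at 13.5, 18.6 and 33.8 at 8 weeks. From P15 to 8 weeks it fell by 0.60 on the log2 scale (SE 0.128, FDR 2.96e-04), with 8 of 12 mice below every P15 mouse. From P6 to P15 the value was 0.30 (SE 0.136, FDR 0.0514) and from P6 to 8 weeks -0.30 (SE 0.135, FDR 0.0455), both at the edge of the threshold. The first of these passed in 7 of 13 alternative fits, among them limma-voom (FDR 0.0382) and DESeq2 (FDR 0.0415), at log2 fold changes of 0.18 to 0.39 over all 13. It also passed without P15 female 2 (0.32, FDR 0.0362), the mouse lowest in Cd79b at its age. The second was lost when P6 female 6 was kept (-0.22, FDR 0.189), a mouse with 8.75 CPM of Cd79b, lower than any of the 34. It was also lost by leaving out any of 12 single mice, 8 aged 8 weeks and 4 aged P6.

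The products of Cd79a and Cd79b form a pair, but the RNA ratio was far from constant. The ratio of Cd79b to Cd79a counts had a median of 9.36 at P6 (5.76 to 17.2), 4.24 at P15 (2.10 to 8.59) and 3.10 at 8 weeks (1.98 to 4.28). Set against Cx3cr1, a receptor gene abundant in microglia, the Cd79b ratio had a median of 0.00940 at P6 (0.00855 to 0.0104), 0.00573 at P15 (0.00420 to 0.0101) and 0.00295 at 8 weeks (0.00221 to 0.00464). Which cells carried the Cd79b RNA was not tested.

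Per kilobase of exon, Cd79b was also by far the most abundant marker at each age, with medians of 15.7, 20.6 and 13.02 CPM per kilobase. At 8 weeks Cd79a (3.67 CPM per kilobase), Trac (3.65) and Nkg7 (3.19) came next, and their ranges over mice overlapped. Cd3d (0.735), Cd3g (0.674), Cd3e (0.650), Cd8a (0.563) and Ms4a1 (0.481) formed the lower end, again with overlapping ranges. Nkg7 stood at the 14.2 percentile of tested genes per kilobase at P6 and at the 50.0 percentile at 8 weeks.

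Since CD45 was used to isolate the cells, each marker was also set against Ptprc, the gene that encodes CD45. Ptprc had medians of 110, 161 and 330 CPM at the 3 ages and itself rose by 1.58 on the log2 scale from P6 to 8 weeks (SE 0.222, FDR 1.59e-07). The ratio of medians at 8 weeks over P6 was 4.20 for Nkg7 against Ptprc, 3.76 for Cd8a, 1.75 for Cd3e, 1.51 for Trac and 1.32 for Cd3g. It was 0.805 for Cd3d, 0.802 for Cd79a, 0.783 for Ms4a1 and 0.273 for Cd79b. On that scale the 3 B cell genes and Cd3d were lower at 8 weeks than at P6, which reverses their direction in CPM except for Cd79b. At 8 weeks over P15 the ratio was 3.16 for Nkg7, 2.38 for Cd8a, 1.38 for Cd3d and 1.29 for Trac, but 1.05 for Cd3e and 0.821 for Cd3g, so on that scale Cd3e was nearly level and Cd3g was lower at 8 weeks than at P15, although both rose in CPM. It was 0.367 for Cd79a, 0.363 for Ms4a1 and 0.272 for Cd79b, so on that scale all 3 B cell genes were lower at 8 weeks than at P15, where in CPM Cd79b alone passed the test. Ptprc has long exons (18313 bases in all) and was lowest at its age in P15 male 1 (30.1 CPM) and 8 weeks male 4 (146 CPM), the same mice that were low in long transcripts, and no test was run on these ratios.

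The requirement for a change of more than 2-fold (edgeR's glmTreat at FDR below 0.05) kept fewer genes. It left Ms4a1 alone from P6 to P15, where 4.87% of tested genes rose by this rule, and Cd8a and Nkg7 from P15 to 8 weeks, where 1.20% did. From P6 to 8 weeks it left Cd3e, Cd3g, Cd8a, Trac and Nkg7, where 11.5% did. The same 5 genes were those with no overlap between P6 and 8-week mice, a pattern found in 14.8% of tested genes. From P6 to P15 the mice of the 2 ages overlapped in all 9 markers, where 5.25% of tested genes had every P15 mouse above every P6 mouse.

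Other genes of each lymphocyte class gave a wider view. Of 15 tested genes of the NK and cytotoxic list, 6 rose and none fell from P6 to P15, and 14 rose from P15 to 8 weeks with none lower. Of all tested genes, 30.4% rose in the first interval and 24.0% in the second. Of the 15, 7 passed the filter on low counts only through the 8-week mice, so their rise was built into being tested, and 7 of the other 8 rose from P15 to 8 weeks. Il2rb, a receptor chain for interleukins 2 and 15, had a median of 1.52 CPM at P6, 2.19 at P15 and 8.34 at 8 weeks. Ccl5, a chemokine of activated T and NK cells, had medians of 0.753, 2.52 and 10.4 CPM. Ctsw, a protease of cytotoxic cells, had medians of 0.533, 1.38 and 3.31 CPM. S1pr5, a receptor for sphingosine 1-phosphate, had medians of 1.09, 1.88 and 3.07 CPM and was the single tested gene of the list not called from P15 to 8 weeks (log2 fold change 0.49, SE 0.223, FDR 0.0672). Ncr1, which encodes the NK receptor NKp46, was at 3 counts or fewer in 8 of 10 P6 mice and 9 of 12 P15 mice, and at 16 to 76 counts in every 8-week mouse. The perforin gene Prf1 and the granzyme gene Gzma moved from medians of 0.112 and 0.427 CPM at P15 to 1.78 and 4.17 at 8 weeks. Ncr1 and Prf1 are among the 7 genes that passed only through the 8-week mice.

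In the list of 20 other T cell genes, 3 rose and 3 fell from P6 to P15, while 15 rose and 1 fell from P15 to 8 weeks. Of the 15, 3 passed the filter only through the 8-week mice, and 12 of the other 17 tested genes rose. Among all tested genes 30.4% rose and 31.4% fell in the first interval, so the list had a smaller share of calls there, and 24.0% rose and 23.9% fell in the second. The median log2 fold change of the list was 0.32 and then 1.18. Both medians include the 3 genes that passed only through the 8-week mice, whose rise was built into being tested. Lck, a kinase of T cell receptor signalling, was among the 15. The 4 best counted genes of the list did not move as one. Cd4, the coreceptor of helper T cells, rose to P15 (0.68, SE 0.136) with medians of 7.94, 12.9 and 10.2 CPM at the 3 ages, was at -0.26 (FDR 0.0904) from P15 to 8 weeks, and over the whole interval rose by 0.43 (SE 0.135). Icos, a costimulatory receptor, fell by 0.87 on the log2 scale from P6 to 8 weeks (SE 0.199). Tcf7, a T cell transcription factor, rose by 0.58 from P15 to 8 weeks (SE 0.169). From P6 to 8 weeks Tcf7 did not pass the test (0.37, SE 0.179, FDR 0.0587 in edgeR).

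Bcl11b, a transcription factor of T cells that cortical neurons also express, fell by 1.23 on the log2 scale from P6 to 8 weeks (SE 0.238). At each age the mouse highest in Bcl11b was also highest in the summed neuronal markers, namely P6 female 5, P15 male 1 and 8 weeks male 3. The part of neuronal RNA in the Bcl11b values was not tested. The summed neuronal markers had lower medians in older mice, but the 6 genes of that list did not move as one. Syt1 and Snap25 rose from P6 to P15 while Stmn2 and Tubb3 fell, where 30.4% and 31.4% of all tested genes did. From P6 to 8 weeks Snap25 rose and 4 genes fell, beside 37.8% and 36.6% of all tested genes.

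**Figure D3:**
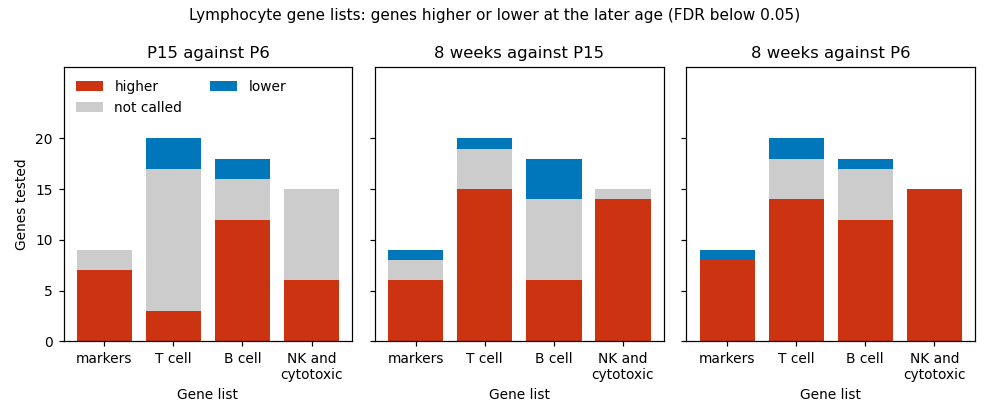
Number of tested genes higher (red), not called (grey) or lower (blue) at the later age at FDR below 0.05 in edgeR, for the 9 markers and for the lists of other T cell, B cell and NK or cytotoxic genes, with 1 panel per comparison. The B cell list had 12 of 18 genes higher at P15 than at P6, of which Vpreb3 passed the filter on low counts only through the P15 mice. The NK list had 14 of 15 and the T cell list 15 of 20 higher at 8 weeks than at P15. Of these, 7 and 3 passed that filter only through the 8-week mice.

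In the B cell list, 12 of 18 tested genes rose and 2 fell from P6 to P15, and 6 rose and 4 fell from P15 to 8 weeks. Of the 6, 2 passed the filter only through the 8-week mice. Vpreb3, which is among the 12 and among the 4, passed only through the P15 mice, so both of its calls were built into being tested. The shares of all tested genes were 30.4% higher and 31.4% lower, then 24.0% and 23.9%, and the second split of the list lay near them. The median log2 fold change of the list was 1.04 and then 0.13, with the genes that passed through 1 age alone included. Cd37 and Bank1, both well counted, rose to P15 by 1.01 (SE 0.110) and 0.72 (SE 0.154) on the log2 scale and did not pass the test afterwards. Ebf1, a factor of early B cell development that is also expressed outside the B lineage, fell at both steps, from a median of 45.9 CPM at P6 to 14.6 and 7.56.

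Among the B cell genes called after P15, both directions occurred, as they did among all genes. Vpreb3, a gene of B cell precursors, had medians of 0.314, 1.01 and 0.218 CPM at P6, P15 and 8 weeks and fell by 2.45 on the log2 scale after P15 (SE 0.469, FDR 9.03e-05). Spib and Pou2af1, transcription regulators of B cells, fell by 1.52 (SE 0.287) and 0.75 (SE 0.316, FDR 0.0497) over the same interval. Fcer2a (CD23) and Cr2 (CD21), surface proteins of mature B cells, rose by 2.41 (SE 0.389) and 3.17 (SE 0.366). Cr2 passed the filter on low counts only through the 8-week mice and Vpreb3 only through the P15 mice, so the direction of these changes was built into being tested. Fcer2a medians were 0.115, 0.349 and 2.35 CPM, and Cr2 was at 3 counts or fewer in 8 of 10 P6 and 8 of 12 P15 mice but at 8 to 52 counts at 8 weeks. These 5 genes were named after their values were seen.

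**Figure D4:**
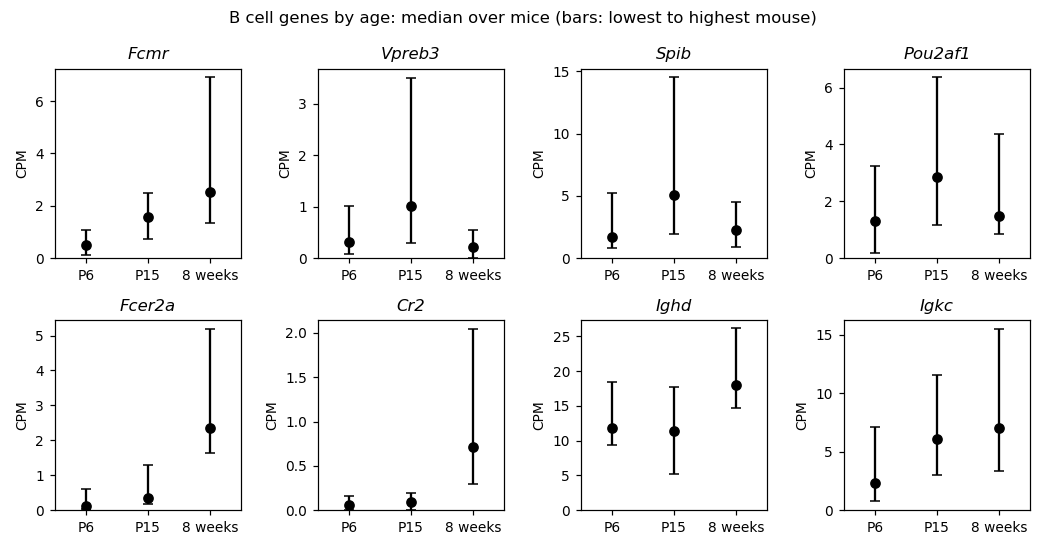
CPM of 8 B cell genes at P6, P15 and 8 weeks (points at the median over mice, bars from the lowest to the highest mouse, each panel starting at 0). Vpreb3, Spib and Pou2af1 are highest at P15, whereas Fcer2a, Cr2 and Fcmr are highest at 8 weeks. Vpreb3 passed the filter on low counts only through the P15 mice and Cr2 only through the 8-week mice.

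Antibody genes did not follow one pattern. Ighm, the constant part of the IgM heavy chain, had medians of 312, 325 and 412 CPM, while Igkc, the constant part of the kappa light chain, had medians of 2.34, 6.10 and 7.03 CPM. The median ratio of Ighm to Igkc was lower in older mice, with values of 136, 67.2 and 55.2 in turn. Igkc rose by 1.24 on the log2 scale from P6 to P15 (SE 0.295) and Ighm was at 0.07 (SE 0.120, FDR 0.653).

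Individual mice varied together in several markers. At 8 weeks, male 4 was highest in 8 of the 9 genes and male 1 lowest in 7, while at P6 male 3 was lowest in 8. The exception for 8 weeks male 4, which was low in long transcripts, was Ms4a1, with the longest exons of the 9 (6187 bases). The part of transcript length in this pattern was not tested. At 8 weeks the Pearson correlation of log2 CPM between pairs of the 9 genes had a median of 0.74 over 36 pairs and 12 mice, and of 0.54 without male 4. Between the 5 T cell genes the median was 0.78, and 0.67 without male 4. At P15 the median over all 36 pairs was 0.35 and at P6 0.44. All pairs share each mouse's library, and at P6 the T cell genes rested on few counts.

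The genes most like 3 of the markers over the 12 mice at 8 weeks were read off by the same measure. For Nkg7 they were Il2rb (r = 0.97), Gzma (0.96), Prf1 (0.94), Spn (0.93) and Ccl5 (0.92), of which 4 are in the NK and cytotoxic list. For Cd3e they were Ctsw (0.93), Cd8b1 (0.92), Pgap3 (0.91), Cd5 (0.90) and Cd8a (0.90). For Cd79a they were Cd2 (0.93), Sept1 (0.92), Hps6 (0.92), Mtg2 (0.90) and Gyg (0.90), none of them in the B cell list. Without male 4 these values lay between 0.85 and 0.95 for Nkg7, 0.86 and 0.89 for Cd3e, and 0.81 and 0.86 for Cd79a. At P15, by contrast, the genes most like Cd79a included Pou2af1 (0.97), Ly6d (0.95) and Spib (0.94), and the neutrophil gene S100a8 (0.89). P15 female 3 was highest at its age in Cd79a, Ms4a1, Spib and Pou2af1, and also in the summed neutrophil markers (120 CPM against a median of 45.8).

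**Figure D5:**
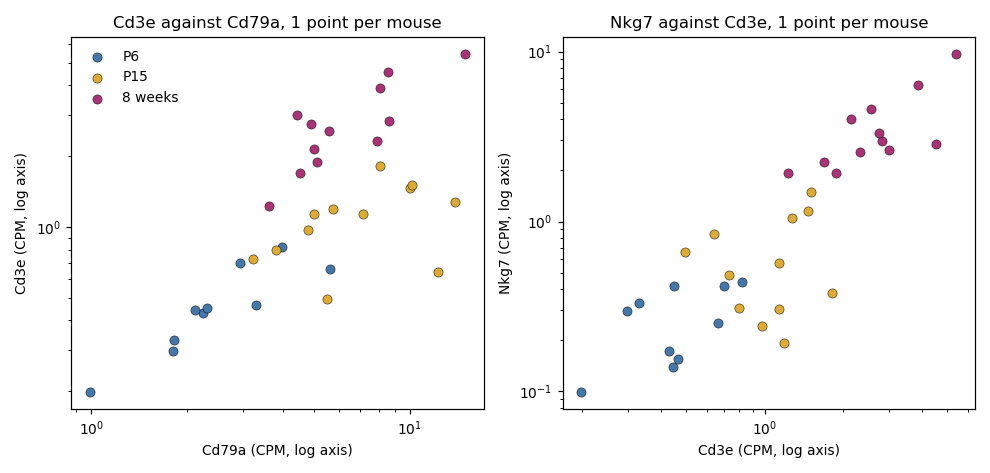
Cd3e against Cd79a and Nkg7 against Cd3e in CPM on log axes, with 1 point per mouse coloured by age. P15 and 8-week mice overlap along Cd79a, 10 of 12 of the 8-week mice lie above every P15 mouse in Cd3e, and 8 weeks male 4 is the point at the upper right of the second panel (5.44 CPM of Cd3e, 9.68 of Nkg7).

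The markers of blood cells did not all move with the lymphocyte genes. All 6 erythroid genes rose from P6 to P15 and all 6 fell from P15 to 8 weeks, the interval in which the T cell and NK genes rose. Of 8 tested neutrophil genes, S100a8, S100a9 and Retnlg rose from P15 to 8 weeks, by 1.48, 1.52 and 0.69 on the log2 scale (SE 0.292, 0.285 and 0.268), while Ngp, Camp, Ltf and Mpo fell. Over all tested genes, 24.0% rose and 23.9% fell in that interval, and 30.4% and 31.4% from P6 to P15. Ccr2 and Ly6c2, genes of blood monocytes, rose at both steps. They belong to a list of 9 monocyte and macrophage genes, which is not limited to blood cells. The 6 of that list that fell from P15 to 8 weeks were Mrc1, Pf4, F13a1, Cd163, Lyve1 and Ms4a7. The part of residual blood in the lymphocyte values was not tested. In 8 weeks male 4, the mouse highest in 8 markers, the erythroid sum was also the highest of its age (4356 CPM against a median of 2049). Other 8-week mice were highest in the neutrophil, monocyte and macrophage, dendritic and neuronal sums. In the microglial (26344 CPM against a median of 23704) and endothelial (315 CPM against 202) sums, 8 weeks male 4 was again the highest. With that mouse and P15 male 1 left out, a fit added after the data were seen, 8, 7 and 9 of the 9 markers changed in the 3 comparisons, where the fit of 34 mice gave 7, 7 and 9. Over all genes the same fit called 11671, 8779 and 13527, beside 10882, 8434 and 13098 with 34 mice.

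No difference between males and females passed the test for any marker. The count of markers past FDR 0.05 in edgeR was 0 at P6, 0 at P15 and 0 at 8 weeks, as it was in limma-voom and DESeq2, where edgeR called 0.0511%, 0.0681% and 0.114% of all genes. At an unadjusted p below 0.05, Cd3g alone passed, at 8 weeks (18.2% of all genes passed at P15, 7.10% at P6 and 2.94% at 8 weeks). Cd3g at 8 weeks was at 1.66, 2.02 and 2.25 CPM (lowest, median and highest) in females and at 1.92, 2.97 and 8.63 CPM in males, so the sexes overlapped. Its log2 difference, male over female, was 0.97 (SE 0.390, unadjusted p = 0.0179 and FDR 1 in edgeR). Without 8 weeks male 4, the highest mouse, it was 0.57 (SE 0.371, unadjusted p = 0.138 in edgeR). Ms4a1 at P6 had the next largest difference, 0.90 (SE 0.456, FDR 0.696). No marker had a sex by age interaction past FDR 0.05 in edgeR, limma-voom or DESeq2, or past an unadjusted p of 0.05 in edgeR, where 11.8% of all genes passed the latter and 0.00% the former.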

How the data were processed

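CD45+ cells of 35 mice were sequenced by the authors as strand-specific, paired-end libraries, aligned with STAR to GRCm38 (mm10) and counted per gene with featureCounts, so the deposited values are raw counts. The annotation release is not given in the sources used here. Replicates are separate mice. Symbols and exon lengths came from the reference tables and GENCODE annotation for GRCm38. The main fit used 34 mice, genes that reached 0.5 CPM in 5 or more mice, TMM scaling, 1 mean per age and sex, and the robust quasi-likelihood test of edgeR 4.0.16 with Benjamini-Hochberg adjustment over 17612 genes. Age contrasts averaged the sexes. CPM values used TMM-scaled totals, and log2 CPM a prior count of 2. Alternatives used limma 3.58.1 and DESeq2 1.42.0. The scripts were tested on simulated data. No 2 libraries of a group agreed within sampling noise. The 9 genes and all lists were chosen with earlier results of these data known. By rule, the 4 best counted genes of the T cell, B cell and NK lists were named, with Cd4 and Ncr1, up to 2 genes of other lists and the 5 genes most like Cd3e, Cd79a and Nkg7 at 8 weeks. Every other gene named, and the likeness at P15, was chosen after its values were seen. Some genes of the lists are not reported here.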

Additional observations from a re-analysis of the deposited data

Results flagged for a closer look

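In 54 groups of 4 or 6 mice of 1 age and sex, 3 marker values lay far from the other mice of their group by Dixon's criterion, where chance gives about 1 in 20. P15 female 3 had 1.25 CPM of Cd3d, and the next of the 6 females had 0.569 CPM. The same mouse had 13.8 CPM of Cd79a, and the next female had 7.11 CPM. P6 female 2 had 0.418 CPM of Nkg7, from 13 counts, and the next of the 4 females had 0.173 CPM. P15 female 3 was also highest at its age in the summed neutrophil markers, and its part in the age comparisons is given by the values without it.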

How the results depend on the processing

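Apart from the 2-fold requirement, 300 of 312 marker values under other settings kept their direction and their side of the threshold, as did 890 of 918 with 1 mouse left out. Of the exceptions, 10 and 22 were Cd79b, from P6 to P15 or to 8 weeks. With the 2-fold requirement, 1, 2 and 5 markers were called from P6 to P15, P15 to 8 weeks and P6 to 8 weeks, and 1713, 751 and 4200 genes in all, where the main counts were 10882, 8434 and 13098. With at least 10 counts in every mouse, 5 markers could be tested and 4, 3 and 5 were called, so fewer genes tested account for the lower counts. With 1 mouse left out, 6 to 8, 7 and 8 to 9 markers were called in turn. Cd3d from P6 to P15 was at -0.048 with library size scaling and -0.16 with 8 weeks male 4 and P15 female 3 left out together, an alternative chosen after seeing the data, and ranged from -0.17 to 0.13 with 1 mouse left out. Cd79a from P15 to 8 weeks ranged from -0.29 to 0.056. The causes were not tested. Sex counts stayed at 0 in every fit that tested sex, and the interaction count in every fit that tested it.

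With the replicate number as a block, 7, 7 and 9 markers were called, as without it. The numbers do not pair the mice: the deviations of 80 same-numbered pairs correlated between -0.54 and 0.69 (median 0.03), and 2 of 34 mice were closest to a mouse of their own number. Depth limits the T cell genes and Nkg7 at P6, where most mice had under 30 counts.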

Other observations

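Of 8 genes of lymphoid precursors, Rag1 and Il7r passed the filter on low counts. Rag1, part of the enzyme that rearranges receptor genes, had medians of 1.09 CPM at P6 and 0.772 at P15 and fell by 4.54 on the log2 scale to 8 weeks (SE 0.642, edgeR), when 9 of 12 mice had 3 counts or fewer. Igll1, of the surrogate light chain, had 1 to 29 counts in P15 mice and 0 in all 12 mice at 8 weeks, and Vpreb1, of the same chain, had medians of 0.162, 0.373 and 0.116 CPM. Il7r, the receptor for interleukin 7, went the other way, with medians of 1.47, 23.4 and 33.9 CPM.

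Of 11 tested genes of lymphocyte homing and residence, 6 rose and 1 fell from P6 to P15, and 9 rose and 1 fell from P15 to 8 weeks, where 30.4% and 31.4%, then 24.0% and 23.9%, of all tested genes did. Cxcr6 and Ifng passed the filter on low counts only through the 8-week mice, so their rise was built into being tested. Cxcr6, a chemokine receptor of resident T cells, rose by 2.28 on the log2 scale after P15 (SE 0.335). Itgae (CD103) rose by 4.07 to P15 (SE 0.244) and then fell by 1.28 (SE 0.190).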
